A study of Homo sapiens with 6 samples.

Results

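Cholesterol and fatty acids are built from acetyl-CoA by enzymes whose genes share one transcriptional control, and 35 genes of these routes were read on 6 arrays. They comprise 7 enzymes of the mevalonate pathway, 3 from squalene to lanosterol, 8 from lanosterol to cholesterol, 5 regulators of the sterol response, 2 genes of sterol transport, 5 of fatty acid synthesis and 5 of desaturation and elongation. The members were listed by name and pathway, with earlier results of these data known, from 19775 genes that the array named by a probe set of their own. Such a probe set existed for 32 of the 35, and all 32 passed the filter for testing. CYP51A1 and FADS1 shared every probe set with another gene name and were read only at the probe set level, and FDFT1, the squalene synthase gene, was not analysed here.

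The study asked how the retinoblastoma protein RB shapes gene expression in oncogene-induced senescence (OIS). All samples were IMR90 cells, a line of human lung fibroblasts, that expressed ER:Ras, an oncogenic Ras that 4-hydroxytamoxifen (4-OHT) switches on. RB-KD cells are OIS cells that had received 100 nM 4-OHT for 6 days and siRB1, a mixture of small interfering RNAs against RB1, 4 days before RNA isolation. Ctrl-KD cells are OIS cells with the same 4-OHT and a control siRNA at the same time, and growing cells had neither 4-OHT nor siRNA. Each state had 2 arrays from independent experiments. In a comparison with growing cells, Ras induction, 4-OHT itself and transfection cannot be told apart. RNA was taken from whole cultures, so fewer cells of a kind and less RNA per cell cannot be told apart either.

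Sterol supply is controlled at the endoplasmic reticulum. When membrane cholesterol is low, SCAP carries the SREBP precursors, the products of SREBF1 and SREBF2, to the Golgi, where they are cut and release transcription factors that switch on sterol and fatty acid genes. INSIG1 and INSIG2 hold SCAP back when sterols are plentiful, and INSIG1 is itself a target of SREBP. Oxysterols act through the LXR receptors on ABCA1, which exports cholesterol, and on SREBF1. In fibroblasts these routes supply membranes, and stearoyl-CoA desaturase and the FADS enzymes set the unsaturation of their acyl chains.

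Values are MAS5 signals, a linear brightness that had been scaled to a common level on every array, and medians of the arrays were 46.0 to 51.8. A gene was called when the adjusted p of limma was under 0.05 over all 13398 genes tested. RB1 was measured at 222 and 229 in RB-KD cells, against 2578 and 1915 in Ctrl-KD cells and 2627 and 2528 in growing cells. All 10 fibroblast markers were above the median of every array, and CDH1, KRT5, KRT14, CDH5, CD14, ADIPOQ, PLIN1 and LEP were under it on every array. Of the other markers of these non-fibroblast lists, KRT8, PECAM1, TEK and CIDEC were above it on every array. EPCAM was above it on 5 arrays, CD3E on 4, VWF on 3 and PTPRC on 1. The summed signal of 13 proliferation genes was 32186 to 35123 in RB-KD cells, 8259 to 9908 in Ctrl-KD cells and 35284 to 35325 in growing cells. All 13 were called lower in Ctrl-KD than in growing cells. The near-equal sums of RB-KD and growing cells held moves in both directions, with 6 genes called higher and 5 lower, and PCNA, at 14130 and 14395 in RB-KD cells, 3969 and 3894 in Ctrl-KD cells, and 8186 and 8413 in growing cells, made up much of the sum in RB-KD cells, while TOP2A read -3.04 on the log2 scale in RB-KD against growing cells. Sums were also lowest in Ctrl-KD cells for the fibroblast markers (211158 to 253506 in RB-KD, 191910 to 197112 in Ctrl-KD and 266173 to 271105 in growing cells), for 4 endothelial markers (1419 to 1557 in RB-KD, 510 to 532 in Ctrl-KD and 1286 to 1417 in growing cells), for 5 epithelial markers (238 to 245 in RB-KD, 135 to 166 in Ctrl-KD and 260 to 311 in growing cells) and for 4 adipocyte markers (178 to 228 in RB-KD, 126 to 148 in Ctrl-KD and 208 to 289 in growing cells). Most of the endothelial sum was TEK, and PECAM1 and VWF were not called in any comparison. The sum of 3 leukocyte markers was instead lowest in RB-KD cells (80.8 to 92.4), beside 120.2 to 150.8 in Ctrl-KD and 136.5 to 169.5 in growing cells. Several members were lowest in Ctrl-KD cells, and the part of proliferation or of these markers in their values was not tested.

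Neither OIS state moved the routes as one block. In RB-KD against growing cells 15 of the 32 members were called, 9 higher and 6 lower, which is 46.9% beside 37.6% of all genes tested. In Ctrl-KD against growing cells 14 were called, 7 higher and 7 lower, or 43.8% beside 41.7% of all genes. Between RB-KD and Ctrl-KD cells 8 were called, 6 higher and 2 lower, or 25% beside 24.2%. The shares of members called thus lay near those of all genes, and the differences lay in which members changed and in which direction. The median log2 fold change of the members was 0.20 in RB-KD against growing cells (-0.015 over all genes), -0.015 in Ctrl-KD against growing cells (-0.0094 over all genes) and 0.10 between the OIS states (-0.023 over all genes). Both comparisons with growing cells used the same growing arrays and are therefore not independent of each other. Centring each array on its median put 61.0% of the genes called in RB-KD against growing cells on the higher side, beside 49.3% without centring, and moved the median of all genes to 0.095. The members called there were then 11 higher and 4 lower. Of single arrays left out, growing replicate 1 lowered the count to 8 members in RB-KD and 8 in Ctrl-KD against growing cells, RB-KD replicate 2 to 7 in RB-KD against growing cells, and RB-KD replicate 1 and Ctrl-KD replicate 1 to 2 and 5 between the OIS states.

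**Figure D1:**
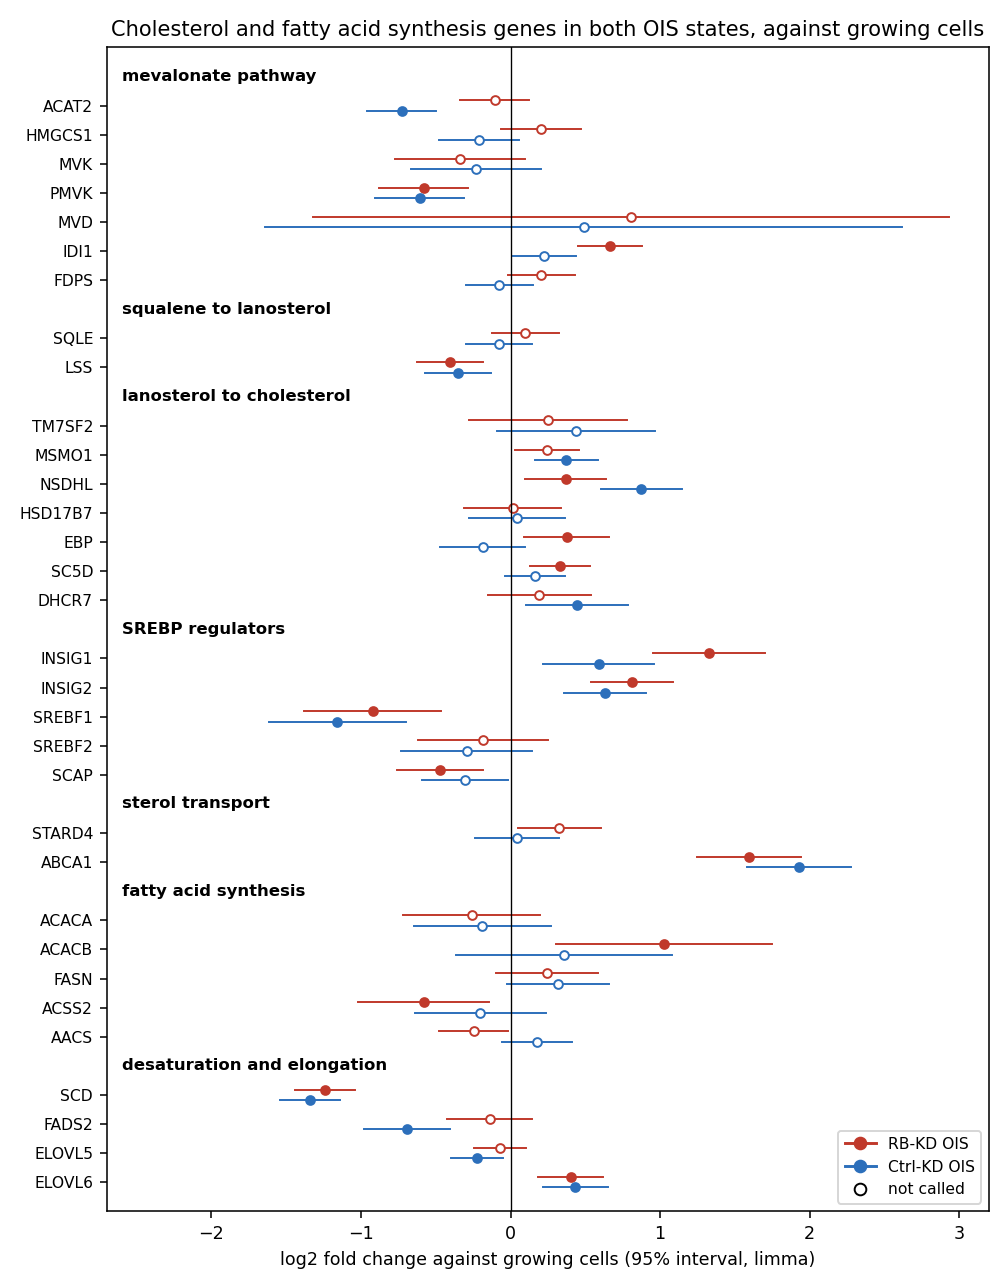
Log2 fold change of the 32 members with a probe set of their own in RB-KD cells (red) and Ctrl-KD cells (blue) against growing cells, by pathway, with 95% intervals from limma (n = 2 arrays per state) and filled points for adjusted p under 0.05. ABCA1 and INSIG1 lie farthest to the right and SCD and SREBF1 farthest to the left, while most enzymes lie within 1 log2 unit of 0.

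The regulators moved in opposite directions within the group. INSIG1 had 13519 and 12276 in RB-KD cells, 9543 and 6243 in Ctrl-KD cells, and 5168 and 5098 in growing cells. The 3 states did not overlap, and RB-KD cells were highest. INSIG1 was 2.51-fold higher in RB-KD than in growing cells (log2 fold change 1.33 ± 0.17 SE, adjusted p = 0.000244), 1.67-fold higher in RB-KD than in Ctrl-KD cells (0.74 ± 0.17, adjusted p = 0.0116), and higher in Ctrl-KD than in growing cells by 0.59 ± 0.17 (adjusted p = 0.0181). Its other probe sets, 201627_s_at and 201625_s_at, were called higher in the same 3 comparisons, by 1.48 and 1.32 in RB-KD against growing cells, by 0.95 and 0.64 between the OIS states and by 0.53 and 0.67 in Ctrl-KD against growing cells. The call between the OIS states ended without RB-KD replicate 1 (0.67, adjusted p = 0.0847), and the call in Ctrl-KD against growing cells ended without growing replicate 1 (0.60, adjusted p = 0.0640) or growing replicate 2 (0.58, adjusted p = 0.0713). Over 16 alternatives the adjusted p ran from 0.000452 to 0.107 in the first of these comparisons and from 0.000209 to 0.114 in the other.

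INSIG2, which retains SCAP like INSIG1 but is not induced by SREBP in the same way, had 1534 and 1412 in RB-KD cells, 1369 and 1233 in Ctrl-KD cells, and 773 and 908 in growing cells. All 4 OIS arrays lay above both growing arrays. In RB-KD cells INSIG2 rose by a log2 fold change of 0.81 ± 0.12 (adjusted p = 0.000762) and by 0.63 ± 0.12 in Ctrl-KD cells (adjusted p = 0.00266), both against growing cells. Between the OIS states the difference was 0.18 with a 95% interval from -0.10 to 0.46, which is not called.

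SREBF1 encodes the SREBP that favours fatty acid genes and had 383 and 271 in RB-KD cells, 300 and 249 in Ctrl-KD cells, and 578 and 642 in growing cells. Both growing arrays exceeded all OIS arrays. SREBF1 fell 1.89-fold in RB-KD cells (-0.92 ± 0.20, adjusted p = 0.00619) and 2.23-fold in Ctrl-KD cells (-1.16 ± 0.20, adjusted p = 0.00150) against growing cells, and the OIS states overlapped. Its second probe set was under the array median on every array, and averaging both probe sets ended both calls (-0.038, adjusted p = 0.961 in RB-KD cells, and -0.21, adjusted p = 0.744 in Ctrl-KD cells). SREBF2, whose product favours sterol genes, had 288 and 303 in RB-KD cells, 314 and 239 in Ctrl-KD cells, and 356 and 316 in growing cells and was not called in any comparison. SCAP, the carrier, had 558 and 509 in RB-KD cells, 591 and 606 in Ctrl-KD cells, and 754 and 724 in growing cells. Its 3 states did not overlap, and it was called lower only in RB-KD against growing cells (-0.47 ± 0.13, adjusted p = 0.0162; Ctrl-KD against growing cells -0.31, adjusted p = 0.0839). That call ended without growing replicate 1 (-0.44, adjusted p = 0.110), growing replicate 2 (-0.50, adjusted p = 0.0738) or RB-KD replicate 2 (-0.40, adjusted p = 0.0797), and its adjusted p ran from 0.0127 to 0.110 over 16 alternatives.

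**Figure D2:**
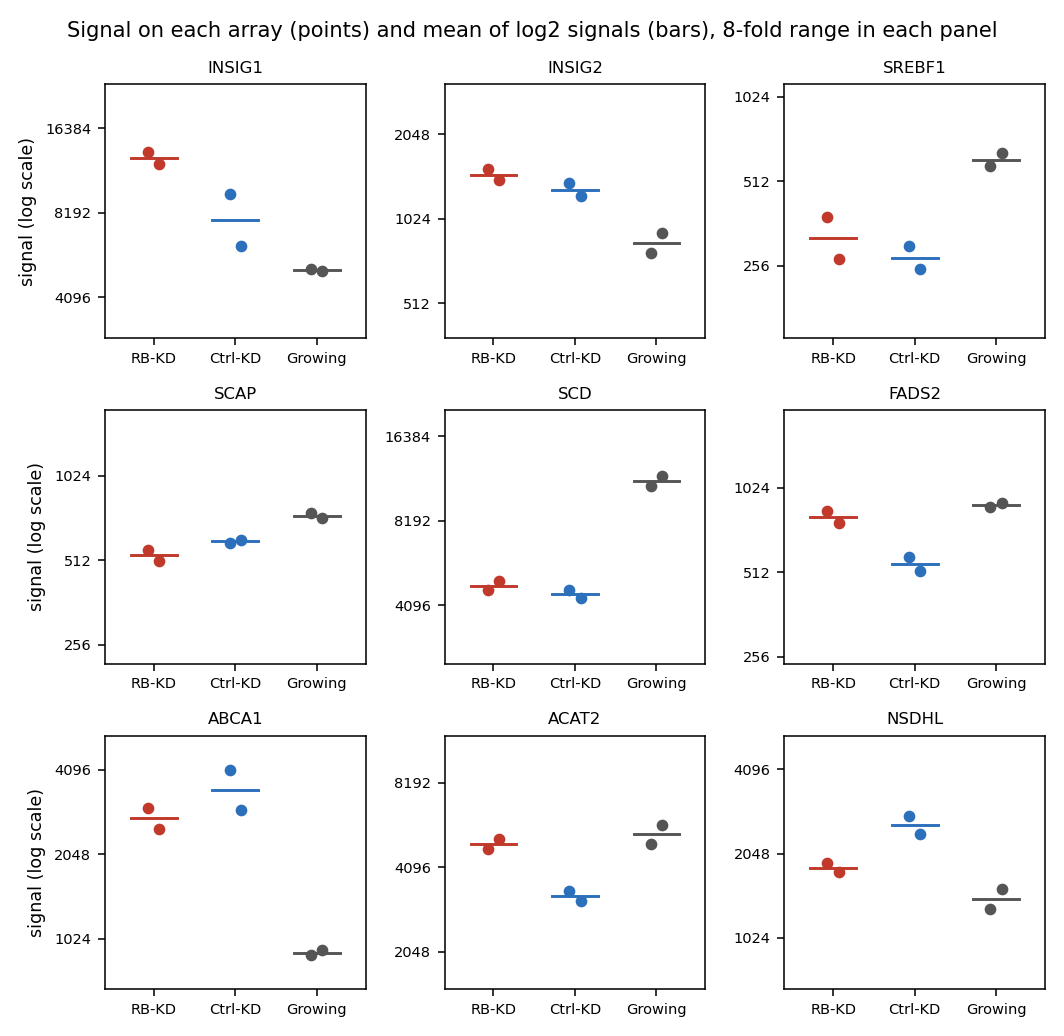
Signal of 9 members on each array (points, logarithmic axis spanning an 8-fold range in every panel) and the mean of log2 signals of each state (bars) in RB-KD, Ctrl-KD and growing cells. INSIG1, INSIG2 and ABCA1 are lowest in growing cells, SREBF1, SCAP and SCD are highest there, ACAT2 and FADS2 are lowest in Ctrl-KD cells, and NSDHL is highest in Ctrl-KD cells.

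Start-site sequence was searched for the motifs of the sterol response in RefSeq promoter windows (GRCh38.p14), which run from 250 bases before to 50 bases after each start. Windows were found for 31 of the 35 members, 42 in all, and ACAT2, FDFT1, SQLE and FASN had no entry. The motifs, read on both strands, were TCACNCCAC for the sterol regulatory element core, CCAAT for the NF-Y box, GGGCGG for the Sp1 box and TTTNNCGC for an E2F-like site. The sterol regulatory element core was in 1.13% of 35116 windows of all genes and in the window of 1 member, SREBF2. NF-Y boxes were in 34.6% of all windows and in 59.5% of the 42 member windows (22 members), Sp1 boxes in 45.0% and 85.7% (29 members), and E2F-like sites in 6.89% and 9.52% (3 members: MVK, INSIG2 and ACACA). SREBP sites are known to vary in their letters, so a window without this core says only that these letters are not in it. The 5 windows shown belong to the feedback regulator that rose in both OIS states, the desaturase that fell in both, the only member with the core, and the FADS pair that neighbour each other head to head. Capitals mark the matches.
INSIG1 chr7:155297628-155297927, plus strand: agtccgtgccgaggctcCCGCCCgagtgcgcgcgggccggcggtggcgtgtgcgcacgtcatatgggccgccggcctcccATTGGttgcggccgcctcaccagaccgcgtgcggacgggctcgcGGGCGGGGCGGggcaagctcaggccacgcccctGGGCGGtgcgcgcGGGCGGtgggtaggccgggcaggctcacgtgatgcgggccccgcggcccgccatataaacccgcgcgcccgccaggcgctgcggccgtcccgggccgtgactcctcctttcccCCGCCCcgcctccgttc
SCD chr10:100346983-100347282, plus strand: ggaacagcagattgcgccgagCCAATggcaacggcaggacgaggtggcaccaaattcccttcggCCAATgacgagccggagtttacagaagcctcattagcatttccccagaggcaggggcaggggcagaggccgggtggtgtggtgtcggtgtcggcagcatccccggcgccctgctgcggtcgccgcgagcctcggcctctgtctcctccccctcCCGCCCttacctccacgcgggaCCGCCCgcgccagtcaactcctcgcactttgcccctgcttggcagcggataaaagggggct
SREBF2 chr22:41832855-41833154, plus strand: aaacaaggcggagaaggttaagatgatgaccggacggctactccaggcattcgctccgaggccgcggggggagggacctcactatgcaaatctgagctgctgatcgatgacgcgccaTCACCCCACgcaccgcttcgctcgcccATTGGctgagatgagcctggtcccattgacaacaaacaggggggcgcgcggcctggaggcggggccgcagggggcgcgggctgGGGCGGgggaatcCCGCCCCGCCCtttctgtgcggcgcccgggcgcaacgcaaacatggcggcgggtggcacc
FADS1 chr11:61816954-61817253, minus strand: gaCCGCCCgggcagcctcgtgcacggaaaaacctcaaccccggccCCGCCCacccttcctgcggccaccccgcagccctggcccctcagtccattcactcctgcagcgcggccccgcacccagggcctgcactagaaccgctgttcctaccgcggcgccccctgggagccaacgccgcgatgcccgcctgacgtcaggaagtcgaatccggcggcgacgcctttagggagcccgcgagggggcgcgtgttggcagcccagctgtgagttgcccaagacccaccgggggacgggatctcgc
FADS2 chr11:61816154-61816453, plus strand: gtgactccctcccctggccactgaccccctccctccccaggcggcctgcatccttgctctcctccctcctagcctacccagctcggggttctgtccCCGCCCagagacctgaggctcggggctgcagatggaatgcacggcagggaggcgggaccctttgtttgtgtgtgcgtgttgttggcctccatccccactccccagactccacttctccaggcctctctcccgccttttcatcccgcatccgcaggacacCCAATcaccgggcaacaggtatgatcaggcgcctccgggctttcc
In the SREBF2 window the core lies before the start site, and an NF-Y box on the other strand follows it. INSIG1 carried 6 Sp1 boxes and 1 NF-Y box, SCD carried 2 of each, FADS1 only 2 Sp1 boxes and FADS2 1 of each in the window shown. Another FADS2 window, which is not shown, held none of the motifs. The windows of INSIG1 and SCD, whose signals moved in opposite directions, each held both kinds of box. These are common over all windows (34.6% for NF-Y and 45.0% for Sp1), and a link to the signals was not tested.

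Desaturation and elongation was the group in which all 4 members with a probe set of their own were called in Ctrl-KD against growing cells, 1 higher and 3 lower, beside 20.5% higher and 21.2% lower over all genes. SCD, which makes monounsaturated fatty acids, had 4635 and 4990 in RB-KD cells, 4642 and 4334 in Ctrl-KD cells, and 10866 and 11880 in growing cells. The OIS states overlapped and lay far below growing cells. SCD fell 2.36-fold in RB-KD cells (-1.24 ± 0.09, adjusted p = 8.53e-06) and 2.53-fold in Ctrl-KD cells (-1.34 ± 0.09, adjusted p = 3.60e-06), both against growing cells, and these calls held in all 16 alternatives. Between the OIS states the difference was 0.10, with a 95% interval from -0.10 to 0.30. A second probe set, 200831_s_at, had 762 and 816 in RB-KD cells, 603 and 533 in Ctrl-KD cells, and 1122 and 1450 in growing cells. It too was called lower in both OIS states (-0.69 in RB-KD and -1.17 in Ctrl-KD cells). On this probe set, unlike the first, both RB-KD arrays lay above both Ctrl-KD arrays. The others, 211708_s_at and 211162_x_at, read 200 to 331 over all arrays and were not called in any comparison.

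FADS1 and FADS2 were higher in RB-KD than in Ctrl-KD cells. FADS2 acts at the entry of polyunsaturated fatty acid synthesis and had 848 and 764 in RB-KD cells, 581 and 517 in Ctrl-KD cells, and 872 and 903 in growing cells. It was lower in Ctrl-KD than in growing cells (-0.69 ± 0.13, adjusted p = 0.00194) and higher in RB-KD than in Ctrl-KD cells (0.55 ± 0.13, adjusted p = 0.0129), while RB-KD and growing cells differed by -0.14 (adjusted p = 0.430). The fall in Ctrl-KD cells was not called with all probe sets averaged (-0.39, adjusted p = 0.0987) or with probe sets of plain suffix taken first (-0.079, adjusted p = 0.846). FADS1 acts later in that route, and its 3 probe sets also name the microRNA gene MIR1908. Probe set 208964_s_at had 5192 and 5168 in RB-KD cells, 2853 and 2968 in Ctrl-KD cells, and 3079 and 3165 in growing cells, so that RB-KD cells stood above both other states. It was 1.78-fold higher in RB-KD than in Ctrl-KD cells (0.83 ± 0.08, adjusted p = 0.000284) and 1.66-fold higher than in growing cells (0.73 ± 0.08, adjusted p = 0.000181). The other 2, 208962_s_at and 208963_x_at, were also called higher in RB-KD cells, by 0.85 and 0.93 on the log2 scale against Ctrl-KD cells and by 0.94 and 0.70 against growing cells, and all 3 kept these calls in the 14 alternatives at the probe set level. In Ctrl-KD against growing cells they read -0.10, 0.09 and -0.22, and none was called, although 208963_x_at gained the call without Ctrl-KD replicate 1 (-0.34, adjusted p = 0.0305). Among all probe sets tested, 16.9% were called between the OIS states, 30.5% in RB-KD against growing cells and 34.1% in Ctrl-KD against growing cells. The call of FADS2 between the OIS states ended without Ctrl-KD replicate 2 (0.47, adjusted p = 0.0564) or RB-KD replicate 1 (0.48, adjusted p = 0.0808), with an adjusted p of 0.00950 to 0.560 over 16 alternatives, and the second FADS2 probe set, 243953_at, was not called (0.25 between the OIS states). FADS3, another gene of the family, which is not a member and was singled out after its values were seen, ran the other way. It had 655 and 589 in RB-KD cells, 1129 and 1111 in Ctrl-KD cells, and 967 and 1004 in growing cells, and was called lower in RB-KD cells, at -0.85 against Ctrl-KD cells (adjusted p = 0.000959) and at -0.67 against growing cells (adjusted p = 0.00166).

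**Figure D3:**
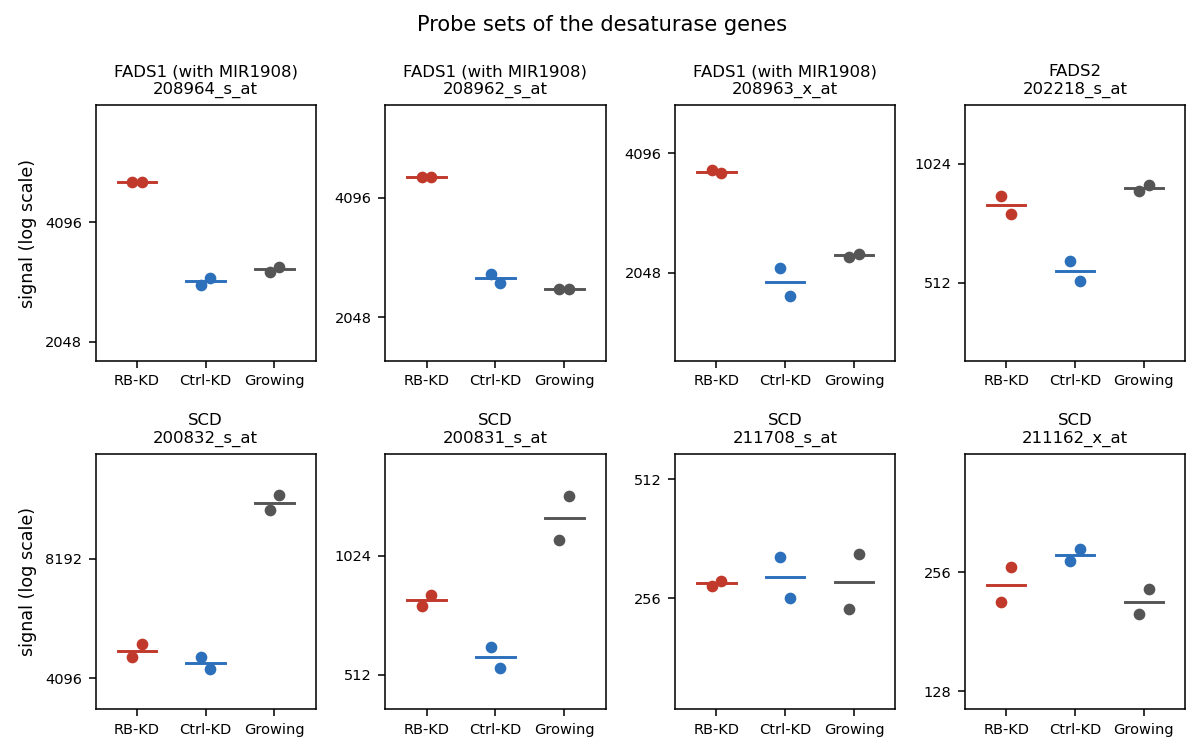
Signal on each array (points, logarithmic axes of equal span) and the mean of log2 signals (bars) for the probe sets of FADS1, FADS2 and SCD in RB-KD, Ctrl-KD and growing cells. The 3 probe sets naming FADS1 and MIR1908 are highest in RB-KD cells, and 2 of the 4 SCD probe sets are highest in growing cells.

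The elongases differed less. ELOVL6, which lengthens saturated and monounsaturated chains, had 4030 and 4324 in RB-KD cells, 4333 and 4196 in Ctrl-KD cells, and 2944 and 3385 in growing cells. It rose by 0.40 ± 0.10 in RB-KD cells (adjusted p = 0.00911) and by 0.43 ± 0.10 in Ctrl-KD cells (adjusted p = 0.00552), but its probe set 227491_at was called lower in Ctrl-KD cells (-0.70, adjusted p = 0.0121) and read 259 and 238 in RB-KD cells, 199 and 205 in Ctrl-KD cells, and 326 and 331 in growing cells. The probe sets of this gene therefore disagree in direction. Without growing replicate 1 neither ELOVL6 call held (0.30, adjusted p = 0.113 in RB-KD cells and 0.33, adjusted p = 0.0763 in Ctrl-KD cells), and the call in RB-KD cells also ended without RB-KD replicate 2 (0.35, adjusted p = 0.0603). Over 16 alternatives its adjusted p ran from 0.00521 to 0.464 in RB-KD cells and from 0.00362 to 0.857 in Ctrl-KD cells. ELOVL5, which lengthens polyunsaturated chains, had 9919 and 10069 in RB-KD cells, 8656 and 9326 in Ctrl-KD cells, and 10428 and 10545 in growing cells. Its fall in Ctrl-KD cells (-0.22 ± 0.08, adjusted p = 0.0435) held in 5 of 16 alternatives (adjusted p 0.00810 to 0.854) and ended when any array other than Ctrl-KD replicate 2 was left out (-0.23 to -0.17). In the fit over probe sets the fall was not called (adjusted p = 0.0535), and probe set 215082_at was called higher (1.21, adjusted p = 0.0144).

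In the mevalonate pathway 2 of 7 members were called in each OIS state against growing cells. That is 28.6%, beside 37.6% of all genes in RB-KD and 41.7% in Ctrl-KD cells. Between the OIS states RB-KD cells had 3 of 7 members higher and 0 lower than Ctrl-KD cells, beside 12.6% higher and 11.6% lower over all genes. Of the 3 higher, only ACAT2 was called without RB-KD replicate 1. ACAT2, the thiolase that joins acetyl-CoA units, had 4777 and 5185 in RB-KD cells, 3363 and 3111 in Ctrl-KD cells, and 4943 and 5812 in growing cells. Ctrl-KD cells lay below both other states, which overlapped. ACAT2 fell in Ctrl-KD against growing cells (-0.73 ± 0.10, adjusted p = 0.000408) and was 1.54-fold higher in RB-KD than in Ctrl-KD cells (0.62 ± 0.10, adjusted p = 0.00262), and both calls held in all 16 alternatives. HMGCS1, the next enzyme, had 1590 and 1319 in RB-KD cells, 1063 and 1116 in Ctrl-KD cells, and 1236 and 1284 in growing cells and was called higher between the OIS states (0.41 ± 0.12, adjusted p = 0.0338). That call held in 7 of 16 alternatives (adjusted p 0.0236 to 0.195) and ended when any array other than RB-KD replicate 2 was left out, with values of 0.28 to 0.45. Its second probe set, 205822_s_at, differed by 0.030 between the OIS states and read 0.41 in RB-KD (adjusted p = 0.0456) and 0.38 in Ctrl-KD cells (adjusted p = 0.0558) against growing cells.

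The kinases that phosphorylate mevalonate were not called between the OIS states, where the 95% interval was -0.27 to 0.32 for PMVK and -0.54 to 0.33 for MVK. PMVK had 943 and 847 in RB-KD cells, 807 and 956 in Ctrl-KD cells, and 1428 and 1252 in growing cells, so that both OIS states overlapped and lay below growing cells. It fell by 0.58 in RB-KD cells (adjusted p = 0.00721) and by 0.61 in Ctrl-KD cells (adjusted p = 0.00509), each with an SE of 0.13. Both calls ended without growing replicate 1 (-0.49, adjusted p = 0.0730 in RB-KD cells, and -0.51, adjusted p = 0.0551 in Ctrl-KD cells), and that in RB-KD cells also without RB-KD replicate 2 (-0.50, adjusted p = 0.0514). Over 16 alternatives the adjusted p ran from 0.00521 to 0.0730 in RB-KD and from 0.00369 to 0.0551 in Ctrl-KD cells. MVK had 414 and 574 in RB-KD cells, 531 and 519 in Ctrl-KD cells, and 706 and 538 in growing cells and was not called, although its probe set 204056_s_at was called lower in both OIS states (-0.93 in RB-KD and -0.74 in Ctrl-KD cells). MVD, which decarboxylates the product, read 11.9 to 63.1 over all arrays, around the array medians, and its interval spanned more than 4 log2 units.

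IDI1 converts isopentenyl diphosphate to its isomer, and its probe sets differed. Probe set 204615_x_at had 9725 and 8815 in RB-KD cells, 6561 and 7123 in Ctrl-KD cells, and 5512 and 6190 in growing cells, and 208881_x_at had 7701 and 7603 in RB-KD cells, 5492 and 6486 in Ctrl-KD cells, and 4448 and 4465 in growing cells. In both, the 3 states did not overlap and RB-KD cells were highest. In the fit over probe sets the rises of 204615_x_at and 208881_x_at in RB-KD cells were 0.66 ± 0.10 (adjusted p = 0.000683) and 0.78 ± 0.10 (adjusted p = 0.000258) against growing cells, and 0.44 ± 0.10 (adjusted p = 0.0133) and 0.36 ± 0.10 (adjusted p = 0.0319) against Ctrl-KD cells. In Ctrl-KD against growing cells only 208881_x_at was called (0.42, adjusted p = 0.00740; 0.23, adjusted p = 0.0991 for the other). Probe set 242065_x_at had 103 and 147 in RB-KD cells, 128 and 116 in Ctrl-KD cells, and 164 and 180 in growing cells, with log2 fold changes of -0.48 in RB-KD and -0.49 in Ctrl-KD against growing cells and 0.012 between the OIS states, none of them called. Probe set 233014_at read 5.1 to 32.8, under the median of every array, and was not tested. Without RB-KD replicate 1 the difference between the OIS states at 204615_x_at, which stands for IDI1 in the fit over genes (adjusted p = 0.00982 there), was 0.37 (adjusted p = 0.0733, range 0.00569 to 0.542 over 15 alternatives). FDPS, which makes farnesyl diphosphate, had 9613 and 8421 in RB-KD cells, 7578 and 7248 in Ctrl-KD cells, and 7273 and 8365 in growing cells and was not called in any comparison.

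**Figure D4:**
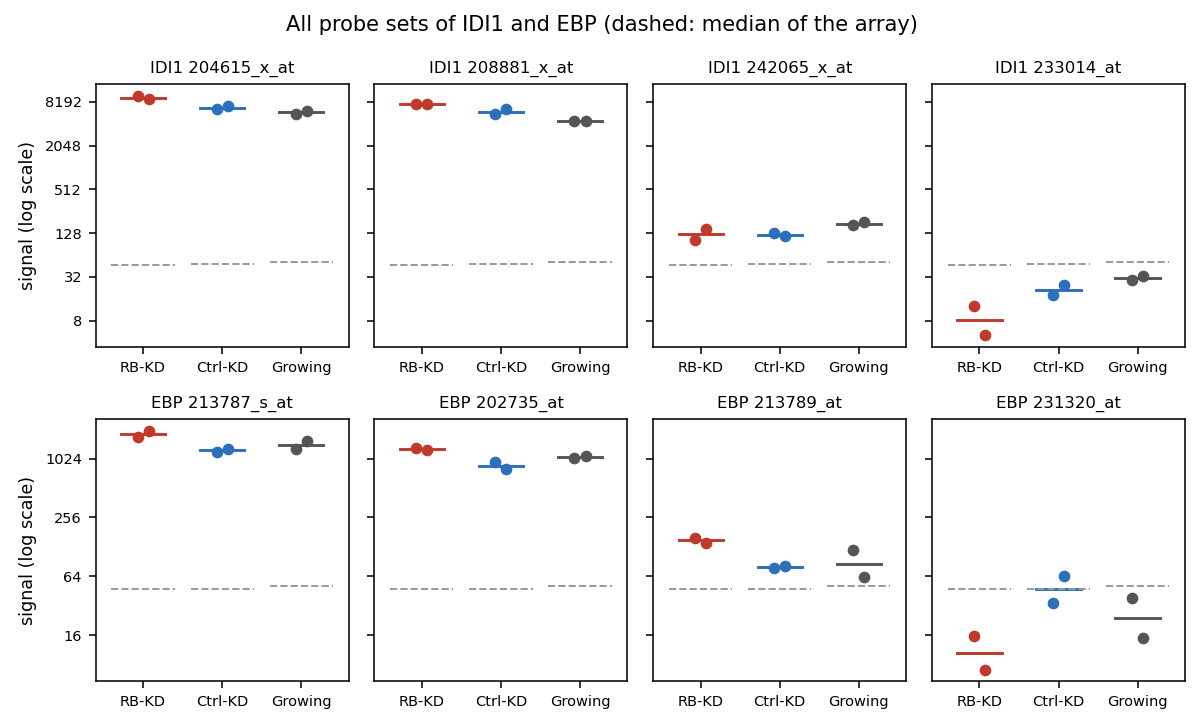
Signal on each array (points, logarithmic axis shared within a row), the mean of log2 signals (bars) and the array median (dashed) for the 4 probe sets of IDI1 and the 4 of EBP in RB-KD, Ctrl-KD and growing cells. For each gene 2 probe sets lie far above the array median and are highest in RB-KD cells, and 1 (233014_at for IDI1, 231320_at for EBP) lies at or under it on nearly all arrays.

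From squalene to lanosterol, SQLE, which forms squalene epoxide, had 6190 and 5332 in RB-KD cells, 4828 and 5364 in Ctrl-KD cells, and 5306 and 5422 in growing cells. The 3 states overlapped, and none of its 4 probe sets was called. LSS, which closes the epoxide to lanosterol, had 2739 and 2684 in RB-KD cells, 2629 and 3007 in Ctrl-KD cells, and 3435 and 3740 in growing cells. It fell in RB-KD (-0.40 ± 0.10, adjusted p = 0.0103) and in Ctrl-KD cells (-0.35 ± 0.10, adjusted p = 0.0180) against growing cells. Both calls ended without growing replicate 2 (-0.34, adjusted p = 0.104 in RB-KD cells, and -0.29, adjusted p = 0.151 in Ctrl-KD cells), and 1 each without RB-KD replicate 2 (-0.39, adjusted p = 0.0524) or Ctrl-KD replicate 1 (-0.25, adjusted p = 0.0828). Over 16 alternatives the adjusted p spanned 0.00539 to 0.142 in RB-KD and 0.00982 to 0.151 in Ctrl-KD cells.

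From lanosterol to cholesterol, 3 of 7 members rose in each OIS state against growing cells and 0 fell. This stood beside 18.5% higher and 19.0% lower over all genes in RB-KD cells and 20.5% higher and 21.2% lower in Ctrl-KD cells. Only NSDHL was called in both states. The others were EBP and SC5D in RB-KD cells, and MSMO1 and DHCR7 in Ctrl-KD cells. NSDHL, an enzyme that removes methyl groups from the sterol ring, had 1887 and 1759 in RB-KD cells, 2784 and 2402 in Ctrl-KD cells, and 1295 and 1535 in growing cells. The states did not overlap, and Ctrl-KD cells were highest. NSDHL rose 1.29-fold in RB-KD cells (0.37 ± 0.12, adjusted p = 0.0368) and 1.83-fold in Ctrl-KD cells (0.87 ± 0.12, adjusted p = 0.000343) against growing cells, and was lower in RB-KD cells than in Ctrl-KD cells (-0.50 ± 0.12, adjusted p = 0.0151). The rise in Ctrl-KD cells held in all 16 alternatives. The rise in RB-KD cells ended without growing replicate 1 (0.25) or either RB-KD array (0.32 and 0.42), with adjusted p from 0.0173 to 0.269 over the alternatives. The difference between the OIS states ended without Ctrl-KD replicate 1 (-0.40) or either RB-KD array (-0.56 and -0.45), with adjusted p from 0.0108 to 0.0906. The second probe set, 209279_s_at, rose by 0.48 in RB-KD and by 0.85 in Ctrl-KD cells and differed by -0.37 between them (adjusted p = 0.0669 in the fit over probe sets, beside 0.0207 for the first). NSDHL, DHCR7, TM7SF2, FASN and ELOVL6 are in the study's list of metabolic genes, drawn from a cluster formed on these arrays. The paper describes that cluster as up in Ctrl-KD and down in RB-KD cells, so being listed is no independent evidence of either direction. Between the OIS states only NSDHL of these genes was called here. DHCR7, TM7SF2, FASN and ELOVL6 read -0.25, -0.19, -0.07 and -0.03 in RB-KD against Ctrl-KD cells.

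EBP, the sterol isomerase, ran the other way between the OIS states. Probe set 213787_s_at had 1718 and 1968 in RB-KD cells, 1194 and 1300 in Ctrl-KD cells, and 1287 and 1563 in growing cells, and 202735_at had 1326 and 1270 in RB-KD cells, 947 and 802 in Ctrl-KD cells, and 1042 and 1082 in growing cells. RB-KD cells exceeded both other states on both. In the fit over probe sets the rises against Ctrl-KD cells were 0.56 ± 0.13 (adjusted p = 0.0165) and 0.57 ± 0.12 (adjusted p = 0.0112), and neither was called against growing cells (0.37, adjusted p = 0.0533, and 0.29, adjusted p = 0.104). In the fit over genes, where 213787_s_at stands for EBP, the value of 0.37 passed the threshold (adjusted p = 0.0441). It did so in 9 of 16 alternatives (adjusted p 0.0138 to 0.855), and not without growing replicate 1 (0.23) or either RB-KD array (0.47 and 0.28). Probe set 213789_at had 160 and 140 in RB-KD cells, 78.5 and 82.4 in Ctrl-KD cells, and 119 and 62.5 in growing cells and was not called (0.90 between the OIS states, adjusted p = 0.132). Probe set 231320_at was above the median of 1 array only and was not tested. The call of EBP between the OIS states in the fit over genes (adjusted p = 0.0121) ended without Ctrl-KD replicate 1 (0.50, adjusted p = 0.0559) or RB-KD replicate 2 (0.46, adjusted p = 0.0779), with adjusted p from 0.00283 to 0.947 over 16 alternatives.

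The remaining enzymes of this stretch changed by less. MSMO1, which also removes ring methyl groups, had 13634 and 12720 in RB-KD cells, 15211 and 13638 in Ctrl-KD cells, and 10439 and 11832 in growing cells. It read 0.24 (adjusted p = 0.0698) in RB-KD cells, where the call was gained without Ctrl-KD replicate 1 or 2 (adjusted p = 0.0437 for both). In Ctrl-KD cells it rose by 0.37 ± 0.09 (adjusted p = 0.0107, range 0.00714 to 0.131 over 16 alternatives), but was not called without growing replicate 1 (0.28). DHCR7, which makes cholesterol from its last precursor, had 806 and 867 in RB-KD cells, 1147 and 865 in Ctrl-KD cells, and 694 and 771 in growing cells. Its rise in Ctrl-KD cells (0.44 ± 0.15, adjusted p = 0.0417) held in 8 of 16 alternatives (adjusted p 0.00908 to 0.235) and ended when any array other than Ctrl-KD replicate 2 was left out (0.24 to 0.52). SC5D, the desaturase before it, had 5191 and 4793 in RB-KD cells, 4342 and 4554 in Ctrl-KD cells, and 3803 and 4136 in growing cells. It was called only in RB-KD against growing cells (0.33 ± 0.09, adjusted p = 0.0160, range 0.00566 to 0.155 over 15 alternatives), and not without growing replicate 1 or RB-KD replicate 1 (0.27 in both). With all probe sets averaged, SC5D was instead called higher in Ctrl-KD cells (1.02, adjusted p = 0.0328) and not called in RB-KD cells (0.84, adjusted p = 0.0703). CYP51A1, which removes a methyl group from lanosterol, was read with LRRD1. Probe set 202314_at had 4490 and 4107 in RB-KD cells, 3637 and 3194 in Ctrl-KD cells, and 3361 and 3467 in growing cells, and 216607_s_at had 1657 and 1388 in RB-KD cells, 1471 and 1566 in Ctrl-KD cells, and 1097 and 1155 in growing cells. The first was higher in RB-KD than in Ctrl-KD cells (0.33, adjusted p = 0.0470) and growing cells (0.33, adjusted p = 0.0302), while the other was higher than in growing cells by 0.43 in each OIS state and differed by -0.0011 between them. The calls of 202314_at held in 5 of 14 alternatives between the OIS states (adjusted p 0.0264 to 0.221) and 9 of 14 against growing cells (0.0140 to 0.174), and those of 216607_s_at in 10 of 14 in either OIS state. Between the OIS states that of 202314_at ended when any array other than Ctrl-KD replicate 1 was left out (0.24 to 0.40), and against growing cells without any of the 4 compared arrays (0.27 to 0.40). At 216607_s_at the call in RB-KD cells ended without either growing array or RB-KD replicate 1 (0.30 to 0.47), and that in Ctrl-KD cells without either growing array or Ctrl-KD replicate 2 (0.39 to 0.47). TM7SF2 (183 to 273 over all arrays) and HSD17B7 (904 to 1129), a reductase and a dehydrogenase of the same steps, were not called.

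In sterol transport, ABCA1 showed the largest change of the 32 members against growing cells. It exports cholesterol to lipoprotein particles and had 2997 and 2514 in RB-KD cells, 4078 and 2942 in Ctrl-KD cells, and 892 and 930 in growing cells. All OIS arrays exceeded both growing arrays, while the OIS states overlapped. ABCA1 rose 3.01-fold in RB-KD cells (1.59 ± 0.15, adjusted p = 5.38e-05) and 3.80-fold in Ctrl-KD cells (1.93 ± 0.15, adjusted p = 1.21e-05). The call in RB-KD cells ended only when all 4 probe sets were averaged (1.24, adjusted p = 0.0758), 2 of which were under the median on every array. Probe set 203505_at had 2324 and 2766 in RB-KD cells, 6154 and 3929 in Ctrl-KD cells, and 586 and 612 in growing cells, without overlap. It rose by 2.08 in RB-KD cells and by 3.04 in Ctrl-KD cells on the log2 scale, and it was lower in RB-KD cells than in Ctrl-KD cells (-0.96 ± 0.19, adjusted p = 0.00763). At 203504_s_at that difference was -0.34 (adjusted p = 0.182 in the same fit over probe sets), and in the fit over genes it was called without Ctrl-KD replicate 2 (-0.57, adjusted p = 0.0221). STARD4, which moves sterol between membranes, had 2952 and 2810 in RB-KD cells, 2523 and 2225 in Ctrl-KD cells, and 2046 and 2576 in growing cells. STARD4 was not called, but RB-KD against growing cells gained the call without growing replicate 2 (0.49, adjusted p = 0.0297, beside 0.33 and 0.0666).

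Among the 5 genes of fatty acid synthesis, 2 were called in RB-KD and 0 in Ctrl-KD against growing cells, beside 37.6% and 41.7% of all genes. ACACA, the main acetyl-CoA carboxylase, had 900 and 1380 in RB-KD cells, 1237 and 1107 in Ctrl-KD cells, and 1160 and 1534 in growing cells, with all states overlapping. FASN, the fatty acid synthase, had 436 and 422 in RB-KD cells, 481 and 423 in Ctrl-KD cells, and 373 and 353 in growing cells. It read 0.24 in RB-KD (adjusted p = 0.242) and 0.32 in Ctrl-KD cells (adjusted p = 0.128) against growing cells and was not called. It gained the call in Ctrl-KD cells with quantile normalization (0.46, adjusted p = 0.0330), and in both OIS states with all probe sets averaged (adjusted p = 0.0420 in RB-KD and 0.0381 in Ctrl-KD cells, where the value was 1.09). AACS, which activates acetoacetate for lipid synthesis, had 1344 and 1452 in RB-KD cells, 1876 and 1876 in Ctrl-KD cells, and 1756 and 1566 in growing cells. RB-KD cells were lowest, and AACS was called lower there than in Ctrl-KD cells (-0.43 ± 0.10, adjusted p = 0.0166). That call ended without Ctrl-KD replicate 2 (-0.43, adjusted p = 0.0503) or RB-KD replicate 1 (-0.37, adjusted p = 0.0926), and its adjusted p ran from 0.0117 to 0.0926 over 16 alternatives.

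ACSS2, which makes acetyl-CoA from acetate, had 219 and 210 in RB-KD cells, 308 and 253 in Ctrl-KD cells, and 346 and 298 in growing cells. It was lower in RB-KD than in growing cells (-0.58 ± 0.19, adjusted p = 0.0414, range 0.0360 to 0.232 over 16 alternatives), and leaving out either growing array (-0.47 and -0.69) or either RB-KD array (-0.61 and -0.55) ended the call. ACACB, the mitochondrial carboxylase isoform, had 165 and 188 in RB-KD cells, 93.9 and 130 in Ctrl-KD cells, and 100.2 and 74.4 in growing cells. It was higher in RB-KD than in growing cells (1.03 ± 0.32, adjusted p = 0.0313, range 0.0157 to 0.164 over 14 alternatives), but not without growing replicate 2 (0.81) or either RB-KD array (1.12 and 0.93). None of its 6 other probe sets was called in any comparison.

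Between RB-KD and Ctrl-KD cells, the members called higher were INSIG1, ACAT2, EBP, FADS2, IDI1 and HMGCS1, and those called lower were NSDHL and AACS. The folds were small, 1.33 to 1.67 for the rises and 1.34 and 1.42 for the falls. The 6 that rose include 3 of 7 enzymes of the mevalonate pathway, 1 of 7 from lanosterol to cholesterol and 0 of 2 from squalene to lanosterol, and these shares were not tested against each other. With 2 arrays against 2 no exact permutation test of a single gene can go below p = 0.333, so each call rests on the spread shared over genes by limma. Without a trend of that spread with signal, 1 member was called, ACAT2.

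**Figure D5:**
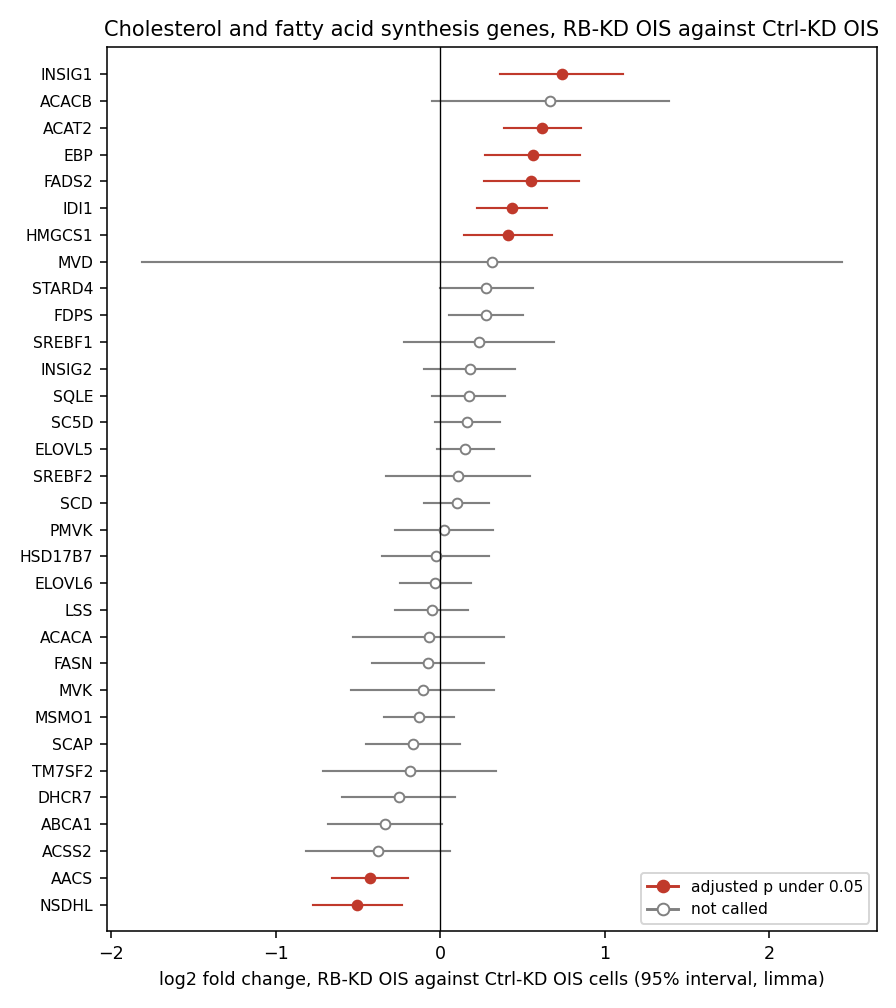
Log2 fold change of the 32 members in RB-KD against Ctrl-KD cells, in order of size, with 95% intervals from limma (n = 2 arrays per state) and filled red points for adjusted p under 0.05. INSIG1 has the largest called rise (0.74) and NSDHL the largest called fall (-0.50).

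Genes next to these routes were read for comparison, from 4 lists written by function. In the isoprenoid branch, which draws on farnesyl diphosphate for prenylation, dolichol and ubiquinone, RB-KD cells had 1 of 9 genes higher and 5 lower than Ctrl-KD cells, beside 12.6% higher and 11.6% lower over all genes. ICMT, which methylates prenylated proteins, had 4019 and 4276 in RB-KD cells, 1941 and 2239 in Ctrl-KD cells, and 2165 and 2250 in growing cells, and was higher in RB-KD than in Ctrl-KD cells (0.99, adjusted p = 0.000209). DHDDS, of dolichol synthesis, and PDSS2, of ubiquinone synthesis, were lower there (-0.62, adjusted p = 0.0190, and -0.60, adjusted p = 0.00740). Against growing cells, 1 gene of this list was higher and 4 were lower in RB-KD cells, beside 18.5% higher and 19.0% lower over all genes. In Ctrl-KD cells 1 was higher and 0 lower, beside 20.5% and 21.2% over all genes.

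Among 13 tested genes of acyl chain activation and elongation, 4 were called higher and 3 lower in RB-KD against Ctrl-KD cells, or 53.8% beside 24.2% of all genes. ELOVL2, an elongase of long polyunsaturated chains, had 300.3 and 302 in RB-KD cells, 63.4 and 68.9 in Ctrl-KD cells, and 891 and 958 in growing cells. It fell by 1.62 in RB-KD cells (adjusted p = 0.000123) and fell by 3.81 in Ctrl-KD cells (adjusted p = 5.61e-07) on the log2 scale against growing cells, and was higher in RB-KD than in Ctrl-KD cells by 2.19 (adjusted p = 6.78e-05). ACSL5, an acyl-CoA synthetase, was under the array median on both growing arrays and was at least 3.46-fold higher in RB-KD and at least 1.87-fold higher in Ctrl-KD cells, measured against that median (adjusted p = 0.00138 and 0.0184). ELOVL7, of the same enzyme family as ELOVL2, was at least 1.33-fold higher in Ctrl-KD than in growing cells (adjusted p = 0.0201). SCD5, the other human stearoyl-CoA desaturase, which was singled out after its values were seen, had 980 and 866 in RB-KD cells, 501 and 471 in Ctrl-KD cells, and 976 and 1019 in growing cells. It was higher in RB-KD than in Ctrl-KD cells (0.92, adjusted p = 0.000912) and lower in Ctrl-KD than in growing cells (-1.04, adjusted p = 0.000141). In RB-KD against growing cells it did not pass the test (-0.11, adjusted p = 0.510).

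Of 7 oxysterol and LXR genes tested, 3 were lower and 0 higher in each OIS state against growing cells, which is 42.9% beside 37.6% of all genes called in RB-KD and 41.7% in Ctrl-KD cells. They included MYLIP, a ubiquitin ligase induced by LXR (-0.59 in RB-KD and -0.64 in Ctrl-KD cells, adjusted p = 0.0227 and 0.0142), and LPCAT3, an LXR-induced lysophospholipid acyltransferase (-0.62 in RB-KD and -0.69 in Ctrl-KD cells, adjusted p = 0.0475 and 0.0287). OSBP, an oxysterol-binding protein, was called lower in RB-KD cells (-0.63, adjusted p = 0.00780). ABCA1 rose in both OIS states, while ABCG1, NR1H3 and RXRA of this list were not called in either. Whether LXR had a part in any of these values was not tested.

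Of 8 genes of SREBP processing, 2 were higher and 2 lower in each comparison, which is 50% beside 37.6% of all genes in RB-KD and 41.7% in Ctrl-KD against growing cells, and 24.2% between the OIS states. PAQR3, which tethers SCAP and SREBP to the Golgi, had 2095 and 2134 in RB-KD cells, 3720 and 3728 in Ctrl-KD cells, and 1138 and 1253 in growing cells. It rose by 0.82 in RB-KD and by 1.64 in Ctrl-KD cells (adjusted p = 0.000136 and 1.55e-06), with no overlap between any states. SPRING1, needed for SREBP maturation, rose by 0.42 in RB-KD and by 0.86 in Ctrl-KD cells (adjusted p = 0.00859 and 0.000108). ERLIN2, which takes part in degradation at the endoplasmic reticulum, had 1639 and 1959 in RB-KD cells, 919 and 1029 in Ctrl-KD cells, and 2678 and 2952 in growing cells. It fell by 0.65 in RB-KD and by 1.53 in Ctrl-KD cells (adjusted p = 0.00250 and 1.10e-05). All 3 lay nearer to growing cells in RB-KD than in Ctrl-KD cells, and the differences between the OIS states were called for each (-0.82, -0.44 and 0.88, adjusted p = 0.000392, 0.0109 and 0.00102). These 3 were named for the size of their changes, which in Ctrl-KD cells were the largest of the list. Such a choice by itself favours values nearer to growing cells in the other OIS state. MBTPS1, also of this list, lay farther from growing cells in RB-KD (-0.49, adjusted p = 0.0108) than in Ctrl-KD cells (-0.29, adjusted p = 0.0835). Its difference between the OIS states was not called (-0.20, adjusted p = 0.279).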

How the data were processed

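RNA from 6 cultures in 3 states was hybridized by the authors to Affymetrix U133 Plus 2.0 arrays. The deposited intensities are MAS5 signals that the authors computed in Affymetrix Expression Console, with trimmed means of 496 on every array. Versions of both are not given in the sources used here. Detection calls do not come with the 54613 probe sets, and the number of arrays limits the precision. Signals were analysed as log2 values without offset or further normalization. Each gene was represented by the probe set with the highest mean among those that name no other gene, and 20 members have several. To be tested, a gene had to exceed the median of its array on 2 or more of the 6 arrays, as 13398 of 19775 did. R 4.3.3 with limma 3.58.1 fitted one mean for each state, the prior variance followed signal, and adjustment was by Benjamini and Hochberg. The same fit was made over 30139 probe sets. Where every array of one state read below its median, a lower bound is given against that median.

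Samples were grouped by their labels. The members, the neighbouring lists and the alternatives were chosen with earlier results of these data known. All members are named, with up to 3 called genes of each neighbouring list, those with the largest changes. The genes SCD5, FADS3, MBTPS1 and SOAT1 were added beyond these after their values were seen. Alternatives covered the normalization (quantile, or median centring), the scale (an offset of 12.5, which is percentile 25), the filter (none, or percentile 70), the probe sets (all averaged, or plain ones first), the variance (no trend), the samples (the 2 compared states alone, or each array left out in turn) and a replicate block. The code of the fit was tested on simulated data, which does not measure the error rate of the calls given here. A planned check of RNA quality was not run, because the rows used held no control probe sets. Promoter windows came from RefSeq (GRCh38.p14), matched by symbol.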

Additional observations from a re-analysis of the deposited data

Results flagged for a closer look

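Of the results, 6 were singled out because RB-KD and Ctrl-KD cells differed by limma's direct test while their values against growing cells had opposite signs. The same growing arrays stand in both. For none of the 6 were both values against growing cells called. HMGCS1, at the probe set that stands for it, and AACS were called in neither OIS state, and the others only in RB-KD cells. An opposite sign therefore does not show a change in both directions. HMGCS1 differed by 0.41 between the OIS states (adjusted p = 0.0338) and read 0.20 in RB-KD and -0.21 in Ctrl-KD against growing cells, while its second probe set, 205822_s_at, read 0.41 in RB-KD (adjusted p = 0.0456) and 0.38 in Ctrl-KD cells (adjusted p = 0.0558), the same sign in both. EBP differed by 0.56 (adjusted p = 0.0121), with 0.37 in RB-KD and -0.19 in Ctrl-KD cells. AACS differed by -0.43 (adjusted p = 0.0166), with -0.25 in RB-KD and 0.18 in Ctrl-KD cells. Probe set 202314_at, which names CYP51A1 and LRRD1, differed by 0.33 (adjusted p = 0.0470), with 0.33 in RB-KD and -0.0023 in Ctrl-KD cells. Probe sets 208964_s_at and 208963_x_at, which name FADS1 and MIR1908, differed by 0.83 (adjusted p = 0.000284) and 0.93 (adjusted p = 0.000451), with 0.73 and 0.70 in RB-KD and -0.10 and -0.22 in Ctrl-KD cells.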

How the results depend on the processing

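With 2 arrays per state, 14, 15 and 8 members were called in Ctrl-KD against growing, RB-KD against growing and RB-KD against Ctrl-KD cells, and most of these calls end under some alternative. ACAT2 (Ctrl-KD against growing, and between the OIS states), NSDHL and ABCA1 (Ctrl-KD against growing), INSIG2 and SCD (both against growing) and INSIG1 (RB-KD against growing) kept theirs in all 16. No trend in the prior variance left 9 members in Ctrl-KD against growing cells and 1 between the OIS states, where it left 1581 of 3238 genes, and it left 14, 12 and 3 of 26, 27 and 17 probe sets of the members in the 3 comparisons. Averaging all probe sets of a gene left 8 members in RB-KD against growing cells and 4 between the OIS states, and 3584 of 5586, 3039 of 5033 and 1649 of 3238 genes. It also turned IDI1 to -0.24 in RB-KD against growing cells and -0.15 between the OIS states, and EBP to -0.031 between the OIS states, none of them called. By construction this average gives probe sets near or under the array median the same weight as the others. Leaving out each array in turn gave 8 to 14, 7 to 16 and 2 to 7 members called in the 3 comparisons, with the fewest without growing replicate 1, RB-KD replicate 2 and RB-KD replicate 1. Probe sets called ranged over 13 to 25, 16 to 30 and 6 to 15, and genes called between the OIS states over 1919 to 2777. Where a state was left with 1 array, that array was assumed to vary like the others. Deviations of replicate 1 from the state means correlated at -0.0038, 0.010 and 0.035 between the states of the 3 comparisons. With 2 arrays per state this cannot decide whether replicate numbers pair the samples. A replicate block called 5696, 5191 and 3542 genes, beside 5586, 5033 and 3238 without it, and 13, 15 and 8 members. The causes of the other changes were not tested. Signals near the array median, as for MVD and ACACB, carry the widest errors.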
